A study of Mus musculus with 12 samples.

Results

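Astrocytes are the glial cells that clear glutamate and potassium from synapses, supply neurons with fuel and lipid, and wrap blood vessels with their end feet. The cells described here are those that the authors' deposited annotation names astrocytes. They numbered 2622 of 19834 cells (13.22%) and formed a single cluster, number 1, of the authors' clustering. All came from female C57/BL6J mice aged 9 weeks, whose hippocampi were dissociated and profiled as single cells with the 10x Genomics 3' v3.1 droplet kit. The study used injections of cisplatin, a platinum drug that crosslinks DNA, as a model of chemotherapy-related cognitive impairment, and asked what 40 Hz sensory stimulation does in it.

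The groups were PBS nonstim (phosphate-buffered saline, no stimulation), PBS stim (saline with stimulation), Cisplatin nonstim (drug, no stimulation) and Cisplatin stim (drug with stimulation), with 3 libraries each. Stimulation was a flickering light and a pulsed sound at 40 Hz for 1 h a day over 21 days, begun on the day of the first injection. Tissue was collected on day 22 in every group, and no dose of cisplatin is given in the labels. Replicate 1 of each group held 2 hippocampi of 1 animal, and replicates 2 and 3 each pooled 4 hippocampi of 2 animals, so that animals within a pool cannot be told apart. By the prefix of their identifiers, the 4 libraries of replicate 1 (prefix 20) are called the first batch below and the remaining 8 (prefix 21) the second. Values are listed in the order of replicates 1, 2 and 3, so the first value of each group is the library of the first batch.

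As background, astrocytes take up glutamate through the carriers Slc1a2 and Slc1a3 and turn it into glutamine with Glul, and they are the main makers of cholesterol in the adult brain, which they export on Apoe particles. The sterol enzymes are switched on together by the transcription factor SREBP2 when membrane sterol is low. Astrocytes also carry the glucocorticoid receptor Nr3c1, whose activation by stress hormone or by steroid drugs induces genes such as Fkbp5, Tsc22d3 and Sult1a1. After injury they can become reactive, with more of the filament proteins Gfap and Vim.

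The annotation was checked against 6 markers of astrocytes, in CPM, the count scaled to a total of 1000000 UMIs over a library's astrocytes, a UMI (unique molecular identifier) standing for 1 captured RNA molecule. Ntsr2, the neurotensin receptor 2, had a median of 1292 over the 12 libraries, 25.7 times that of neurons, the next cell type. The fibroblast growth factor receptor Fgfr3 had a median of 653 CPM, 19.9 times the ependymal cells. Aldoc, a glycolytic aldolase, was 11.2 times, the glutamate carrier Slc1a2 9.09 times and the bicarbonate carrier Slc4a4 7.42 times the next type. Gja1, the gap junction protein connexin 43, was 2.95 times the level of fibroblasts. Of the 6, Fgfr3 and Aldoc are among the genes called higher under cisplatin below. The 6 markers together made up between 19324 and 26827 CPM in the PBS libraries and between 21496 and 24350 in the cisplatin libraries. Of the 2622 cells, 18 held at least 1% of their UMIs in markers of another type, 13 of them in oligodendrocyte and 5 in choroid plexus markers.

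Libraries held 110 to 437 astrocytes and 775134 to 2462137 astrocyte UMIs, with a median of 5506.5 UMIs and 2167.5 genes per cell. The batches differed. The median astrocyte had 13.9 to 20.8% of its UMIs from the mitochondrial genome in libraries of the first batch, against 6.0 to 8.58% in the others, and unspliced molecules made up 47.3 to 52.0% and 33.1 to 39.3%. Lars2, Gm42418 and AY036118, called ribosomal RNA-like transcripts here because the last 2 lie on ribosomal RNA sequence and Lars2 moves with them, took 2.89 to 5.6% of astrocyte UMIs where second-batch mice had PBS (4 libraries) and 0.723 to 1.33% where they had cisplatin (4 libraries). In the first batch they took 0.70 to 0.89% under PBS and 0.558 to 0.559% under cisplatin. The 4 second-batch PBS libraries thus stand apart. Fits without them, and fits with this share as a covariate, are given below and made far fewer cisplatin calls. Fits without these 4 keep 1 PBS library per stimulation state, each of 1 animal and of the first batch. Their PBS level thus comes from first-batch libraries alone, and fewer calls there can reflect fewer libraries. The covariate differed between the drug arms within each batch without overlap, so a fit with it cannot separate this share from the drug. Why the 4 second-batch PBS libraries differ was not tested. Differences within the first batch, where the ribosomal RNA-like share differed less, are given beside the leading genes. Other measures differed with the drug in that batch. The median mitochondrial share was 14.6 and 13.9% in its PBS nonstim and PBS stim libraries. It was 19.1 and 20.8% in its Cisplatin nonstim and Cisplatin stim libraries. Median UMIs per astrocyte were 5461 and 7022 against 3894 and 5060.5. What this adds to first-batch differences was not tested. Choroid plexus cells made up 2.29 to 24.1% of the cells of PBS and 7.96 to 38.0% of those of cisplatin libraries, and 7 astrocytes carried a barcode also found in another library.

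The share of astrocytes among all cells did not differ detectably between groups. It was 15.3, 15.8 and 12.4% in the PBS nonstim libraries, 24.4, 12 and 9.19% in PBS stim, 14.4, 8.12 and 13.7% in Cisplatin nonstim and 23.5, 11.1 and 12.6% in Cisplatin stim. The first value of the PBS stim and of the Cisplatin stim group, both from the first batch, lay above all other libraries, and the ranges of all 4 groups overlapped. Group means were 14.5 ± 1.79% (SD, n = 3), 15.2 ± 8.09%, 12.1 ± 3.42% and 15.8 ± 6.78%. Averaged over stimulation, the log2 difference of cisplatin minus PBS was -0.11 (adjusted p = 0.829 by edgeR over 12 cell types), with an exact two-sided permutation p of 0.614 within batches. A recovery of fewer astrocytes at dissociation and a lower number in the tissue cannot be told apart in such a share.

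**Figure D1:**
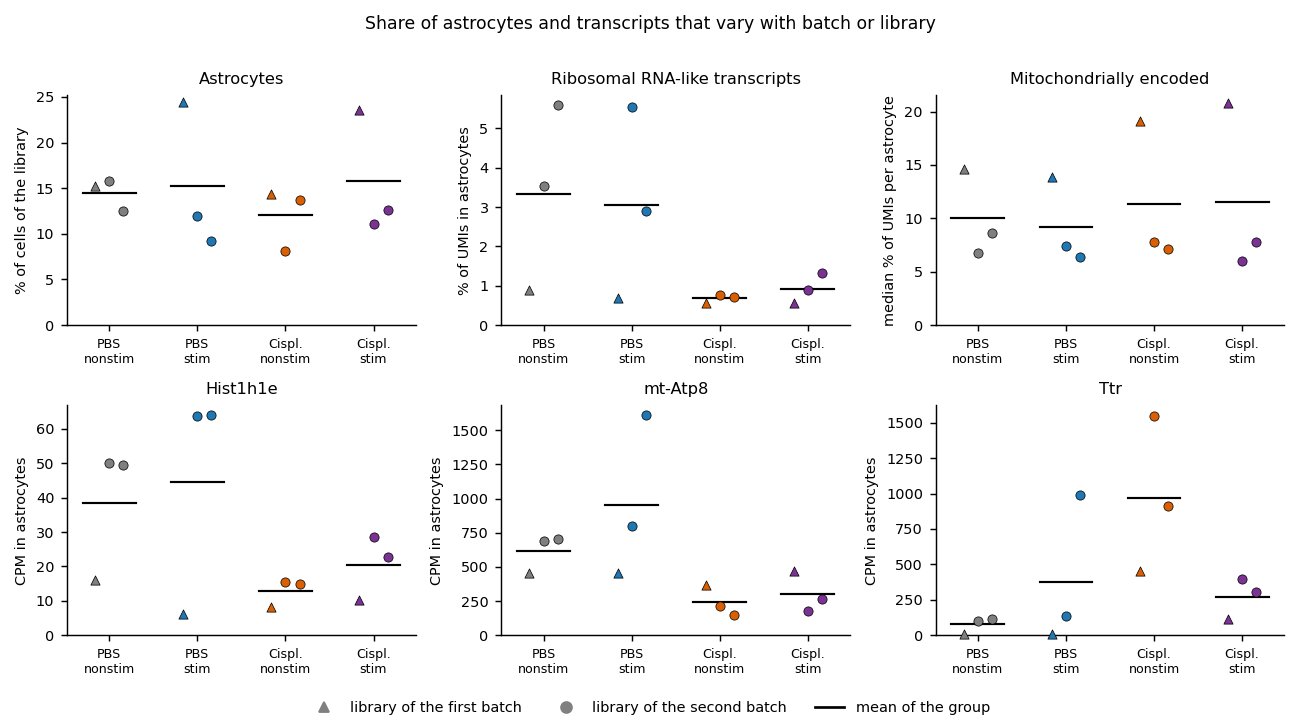
Each point is 1 library, with triangles for the first batch and circles for the second, and the line is the mean of the group (3 libraries). The panels plot astrocytes as a percent of all cells, ribosomal RNA-like UMIs as a percent of astrocyte UMIs, the median mitochondrially encoded percent per astrocyte, and the CPM of Hist1h1e, mt-Atp8 and Ttr in astrocytes. The ribosomal RNA-like share is at 2.89 to 5.6% in the 4 second-batch PBS libraries and at most 1.33% in all others, while the mitochondrial share separates the batches.

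The main question about these cells was what cisplatin changed in them, and it was read most fully by averaging the drug effect over stimulated and unstimulated mice. In astrocytes 264 genes rose and 246 fell among 10163 tested (edgeR quasi-likelihood test on summed counts, Benjamini-Hochberg adjusted p under 0.05), 5.02% of all tested genes (2.6% higher, 2.42% lower). The 264 include markers of other cell types, 2 of 9 for oligodendrocytes and 1 of 2 tested for choroid plexus. Of the genes that rose, the lipid enzyme Etnppl, the oxygenase Phyhd1, the glucocorticoid-induced Fkbp5, the channel Kcnt1, the cold-inducible Rbm3 and the Notch ligand relative Dlk1 had the smallest adjusted p. Dlk1 was at 4.04 ± 0.44 from low levels, at most 3.18 CPM in PBS and 28.5 CPM in cisplatin libraries. Of those that fell, the thioesterase Them4, the fatty acid binding protein Fabp7, the glutamate receptor Grm3, S100a10, Gm10800 (0 UMIs in all cisplatin and in both first-batch PBS libraries) and the ribosomal RNA-like Lars2 came first. Lars2 was at -1.87 ± 0.23, -0.55 within the first and -2.5 within the second batch. The sterol enzymes Hmgcs1 and Idi1 and the chaperone Hsp90b1 followed. For 76 genes all 6 cisplatin libraries lay above all 6 PBS libraries (0.748% of those tested) and for 81 all lay below (0.797%). The count of 510 calls was 305 to 673 when 1 library was left out, lowest without Cisplatin nonstim replicate 3. It was 336 without PBS nonstim replicate 2, 325 without PBS stim replicate 2 and 310 without Cisplatin nonstim replicate 2. With the ribosomal RNA-like share as a covariate 32 genes were called, and 85 when the 4 second-batch PBS libraries were left out. With that covariate Etnppl, Phyhd1, Kcnt1, Mfsd2a, Rbm3, Hmgcs1, Idi1 and Hsp90b1 were still called, and Fkbp5, Dlk1, Fabp7, Them4 and Grm3 were not. The ribosomal RNA-like share was lower under cisplatin within each batch without overlap. A call lost with it therefore does not tell this share and the drug apart.

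Etnppl, an enzyme of astrocytes that breaks down phosphoethanolamine, a building block of membrane lipid, had the smallest adjusted p of all genes (chromosome 3, 130617448 to 130637521, plus strand, GRCm38). Its levels were 128, 132 and 84.5 CPM in PBS nonstim, 82.4, 108 and 109 in PBS stim, 220.4, 350.5 and 332 in Cisplatin nonstim and 597, 401 and 408 in Cisplatin stim, where CPM values of astrocytes by library are scaled by TMM factors from here on, and values of other cell types, medians over libraries and marker sums are not. Every cisplatin library lay above every PBS library. The log2 fold change was 1.81 ± 0.14 (SE; edgeR adjusted p = 1.86e-09), and the difference was 1.81 within the first batch and 1.78 within the second. Cisplatin minus PBS was 1.38 ± 0.19 without stimulation and 2.24 ± 0.20 with it, and the difference between these was not called (interaction 0.86 ± 0.27, edgeR adjusted p = 0.755).

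More astrocytes also had an Etnppl UMI. With every cell thinned to 2000 UMIs, which left out 300 of 2622 astrocytes (82 of Cisplatin nonstim, 53 of Cisplatin stim, 79 of PBS nonstim and 86 of PBS stim), the share of cells with a UMI averaged 19.1% in PBS nonstim and 18.7% in PBS stim. It averaged 41.1% in Cisplatin nonstim and 55.1% in Cisplatin stim. Before thinning these shares were 37.2, 34.2, 65.7 and 80.2%. In oligodendrocytes, which should lack the gene, thinned shares were at most 1.47% in any library, with a median depth of 7157 UMIs per cell against 5506.5 in astrocytes.

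Phyhd1, an oxygenase of the phytanoyl-CoA dioxygenase family, stood at 31.4, 47.9 and 24.1 CPM in PBS nonstim, 32.4, 24.3 and 29.4 in PBS stim, 86, 85.3 and 78 in Cisplatin nonstim and 223, 113 and 95.2 in Cisplatin stim. The 6 cisplatin libraries lay above the 6 PBS libraries, and its log2 rise was 1.75 ± 0.17 (edgeR adjusted p = 1.56e-07; first batch 2.09, second 1.57). Its neighbour Lrrc8a, a subunit of the volume-regulated anion channel, rose by 0.88 ± 0.10 (edgeR adjusted p = 1.92e-06; first batch 0.75, second 0.92). The genes lie next to each other on chromosome 2 (30266203 to 30282149 and 30237715 to 30263790), and the readthrough gene Gm28035 overlaps both on the same strand. Since 43.5% of the 31-base words of Phyhd1 and 66.1% of those of Lrrc8a also occur in other genes, their levels are uncertain.

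Of the genes for channels and carriers, Kcnt1, a sodium-activated potassium channel, had 34.4, 28.3 and 21.6 CPM in PBS nonstim, 29.8, 17.3 and 21.9 in PBS stim, 64.7, 73.2 and 43.7 in Cisplatin nonstim and 201, 78.9 and 68 in Cisplatin stim. No PBS library reached the lowest cisplatin library, and Cisplatin stim replicate 1 was far above the rest. Kcnt1 rose by 1.7 ± 0.17 (edgeR adjusted p = 2.9e-07), by 1.8 within the first and 1.51 within the second batch. Mfsd2a, a carrier of lysophospholipids known from the blood-brain barrier, had 141, 140.2 and 80.7 CPM in PBS nonstim, 132, 108 and 100.1 in PBS stim, 249, 185 and 177 in Cisplatin nonstim and 495, 252 and 193 in Cisplatin stim. It rose by 1.07 ± 0.13 (edgeR adjusted p = 5.57e-06; first batch 1.35, second 0.92) without overlap of the arms. The glucose carrier Slc2a1 rose by 0.54 ± 0.11, and the connexin Gjb6, the partner of Gja1 in astrocyte gap junctions, by 0.47 ± 0.11.

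Enzymes and secreted proteins followed. Idh2, the mitochondrial isocitrate dehydrogenase, rose by 0.80 ± 0.10 (edgeR adjusted p = 9.18e-06; first batch 0.50, second 0.96), from 169 ± 23.1 CPM (SD, n = 3) in PBS nonstim and 163 ± 9.6 in PBS stim to 274 ± 29.1 in Cisplatin nonstim and 307 ± 41.5 in Cisplatin stim. Agt, the precursor of angiotensin, which astrocytes make in the brain, had 331, 254 and 249.7 CPM in PBS nonstim, 355, 274 and 290.3 in PBS stim, 645, 465 and 491 in Cisplatin nonstim and 487, 321 and 422 in Cisplatin stim. Its highest values were in Cisplatin nonstim, and Cisplatin stim replicate 2 lay within the range of the PBS libraries. Agt rose by 0.68 ± 0.09 on average (edgeR adjusted p = 2.95e-05; first batch 0.71, second 0.65), by 0.94 ± 0.13 without stimulation, and its difference with stimulation was 0.42 ± 0.13 (edgeR adjusted p = 0.0906). That difference between the conditions was not called (interaction -0.52 ± 0.19, edgeR adjusted p = 0.81). Itih3, a carrier of hyaluronan in the matrix, rose by 0.73 ± 0.11 and the deubiquitinase Usp2, which is known to act on the clock, by 0.76 ± 0.11.

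**Figure D2:**
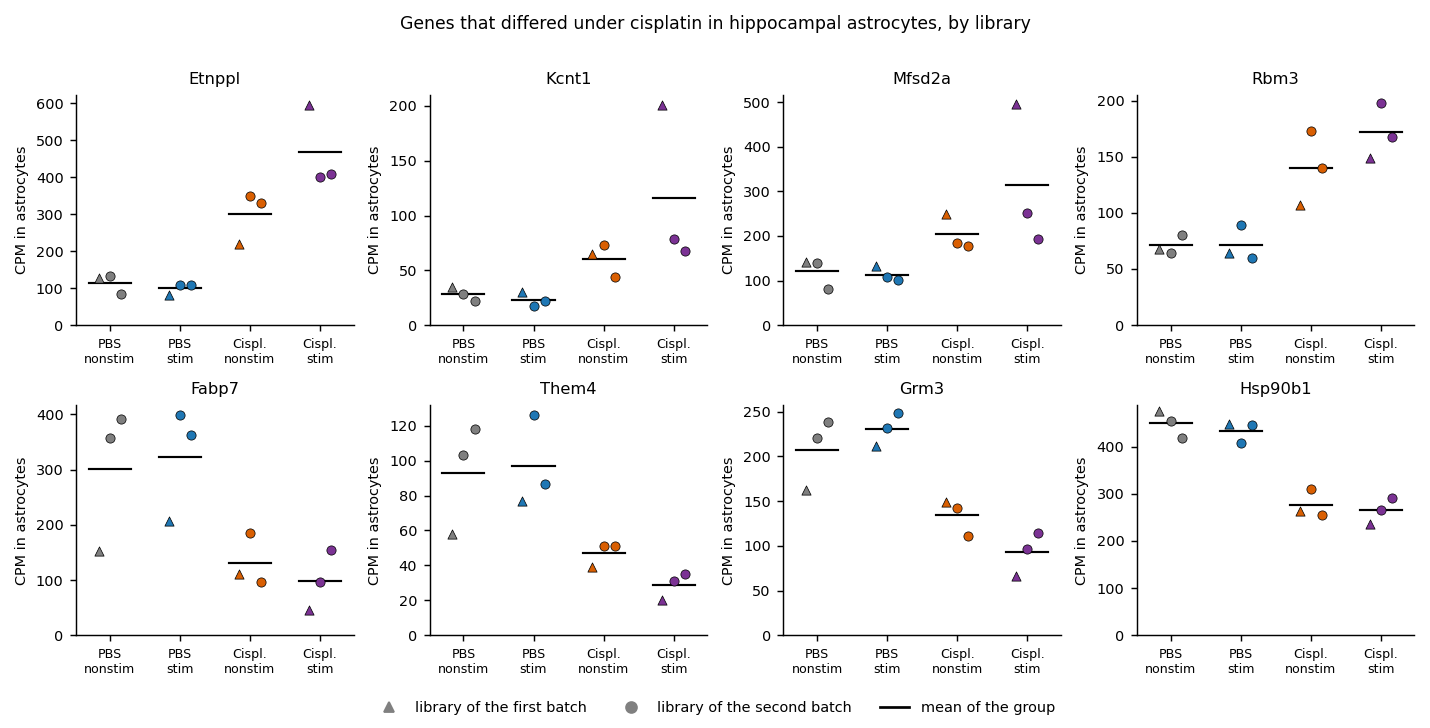
CPM in astrocytes by library for 4 genes that rose under cisplatin (Etnppl, Kcnt1, Mfsd2a, Rbm3) and 4 that fell (Fabp7, Them4, Grm3, Hsp90b1). Triangles are libraries of the first batch, circles of the second, lines group means of 3 libraries. For all of these but Fabp7 the 6 cisplatin libraries do not overlap the 6 PBS libraries.

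Genes that glucocorticoids induce were among those that rose. Of 25 genes on the glucocorticoid response list 23 passed the filter on low counts, 11 rose and 0 fell (background 5.02%), and the median log2 fold change was 0.47 against -0.0032 over all genes. Fkbp5, a chaperone of the steroid receptor, had 3.06, 1.66 and 2.54 CPM in PBS nonstim, 0, 3.93 and 0.841 in PBS stim, 5.14, 14.8 and 12.1 in Cisplatin nonstim and 39.5, 45.3 and 37.2 in Cisplatin stim. All cisplatin libraries exceeded all PBS libraries, at low levels. Microglia held more, with 43.2 to 119 CPM in PBS and 44.1 to 294 in cisplatin libraries, and the part of free RNA in the astrocyte values was not tested. Fkbp5 rose by 3.38 ± 0.35 (edgeR adjusted p = 2.9e-07; first batch 2.97, second 3.01), the most of the list, and DESeq2 gave it no adjusted p. Tsc22d3, the anti-inflammatory factor GILZ, had 204, 204 and 135 CPM in PBS nonstim, 164, 243 and 218 in PBS stim, 196, 318 and 387 in Cisplatin nonstim and 661, 531 and 412 in Cisplatin stim. Only Cisplatin nonstim replicate 1 fell within the PBS range, and the gene rose by 1.04 ± 0.14 (edgeR adjusted p = 3.07e-05; first batch 0.97, second 1.05).

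Sult1a1, a sulfotransferase, had 23.7, 27.5 and 8.89 CPM in PBS nonstim, 16.7, 14.1 and 23.6 in PBS stim, 36.7, 53.7 and 48.3 in Cisplatin nonstim and 109, 91.9 and 61.6 in Cisplatin stim, without overlap of the arms, and rose by 1.71 ± 0.20 (edgeR adjusted p = 2.32e-06; first batch 1.62, second 1.81). Rises of 1.39 ± 0.20 and 3.13 ± 0.51 were called for Hif3a, an oxygen-regulated transcription factor, and for Cdkn1a, the cell cycle inhibitor p21. The phagocytic receptor Mertk rose by 0.42 ± 0.10, and the NF-kappaB inhibitor Nfkbia, the zinc finger factor Zbtb16 and the actin-binding protein Fam107a by 0.60 ± 0.11, 0.89 ± 0.23 and 0.38 ± 0.10; these last 3 were named after their values were seen. Zbtb16 passed in 7 and Fam107a in 8 of the 12 fits that each left out 1 library. Not called, and apart from Dusp1 also named afterwards, were Dusp1 (0.85 ± 0.26), Sgk1 (0.79 ± 0.33), Per1 (0.44 ± 0.15) and Pdk4 (-0.36 ± 0.19). The receptor Nr3c1 itself had 163, 149 and 169 CPM in PBS nonstim, 176, 199 and 167 in PBS stim, 148, 134 and 124 in Cisplatin nonstim and 98.7, 132 and 131 in Cisplatin stim, lower in all cisplatin libraries, and fell by 0.42 ± 0.10 (edgeR adjusted p = 0.014; not called without PBS stim replicate 2 or Cisplatin nonstim replicate 3).

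The list's median was 0.557 within the first batch, with 21 of 23 genes higher, and 0.52 within the second, with 19 of 23 higher. With 1 library left out 10 to 13 members rose. DESeq2 called 8 and limma-voom 11. With the ribosomal RNA-like share as a covariate 1 member, Mfsd2a, was called higher and 21 of 23 kept a positive sign, and 6 of 25 tested were called without the 4 second-batch PBS libraries.

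Promoters were searched because many members were called in the same direction. RefSeq promoter windows (GRCm38.p6, the 250 bases before a transcript start) were found for 21 of the list's genes, 3 of which (14.3%) held the glucocorticoid response element, searched on either strand as GNACA and TGTNC with any 3 bases between them. The motif was in 0.298% of the 8062 tested genes with a window and in 0.44% of all 27025 genes in the table. One of the called members held it, Fam107a, in 2 overlapping windows of its 3. One of these (chr14:8309780-8310029, minus strand) is shown because it carries the match in capitals.
Fam107a: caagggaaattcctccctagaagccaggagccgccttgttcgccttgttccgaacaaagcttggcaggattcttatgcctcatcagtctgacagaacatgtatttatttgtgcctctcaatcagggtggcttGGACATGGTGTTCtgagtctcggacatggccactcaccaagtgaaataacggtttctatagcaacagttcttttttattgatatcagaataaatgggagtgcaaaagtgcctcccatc
A match describes the letters of the window and is neither a bound site nor a cause. Of the 264 genes that rose, 210 had a window and 2 of these held the motif (0.952%).

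Genes of sterol synthesis were lower. All 24 measured members of the cholesterol synthesis list had negative log2 fold changes, with a median of -0.40; 8 fell and 0 rose (background 5.02%). Hmgcs1, which makes the precursor of mevalonate, had 401, 331 and 405 CPM in PBS nonstim, 374, 437 and 438 in PBS stim, 169.7, 276 and 223 in Cisplatin nonstim and 188, 207 and 281 in Cisplatin stim. The highest cisplatin library lay below the lowest PBS library, and Hmgcs1 fell by 0.83 ± 0.11 (edgeR adjusted p = 1.77e-05). Idi1, the isopentenyl diphosphate isomerase, had 184, 232 and 224 CPM in PBS nonstim, 143, 283 and 284 in PBS stim, 72, 173 and 149 in Cisplatin nonstim and 81, 137 and 167 in Cisplatin stim. The arms overlapped through PBS stim replicate 1, and Idi1 fell by 0.82 ± 0.11 (edgeR adjusted p = 2.48e-05; first batch 1.08, second 0.70); 18.8% of its 31-base words also occur in other genes, which makes the level uncertain.

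Cyp51, the lanosterol demethylase, fell by 0.69 ± 0.12, and Dhcr7, which makes the last step to cholesterol, by 0.54 ± 0.15. The squalene synthase Fdft1 fell by 0.44 ± 0.11, a level that is uncertain since 14.3% of its 31-base words occur in other genes. Msmo1, a sterol oxidase, fell by 0.41 ± 0.12 and the phosphomevalonate kinase Pmvk, which adds the second phosphate, by 0.41 ± 0.12; both were named after their values were seen. With 1 library left out in turn, Dhcr7 passed in 5, Msmo1 in 3 and Pmvk in 3 of 12 fits, and Fdft1 in all but those without replicate 1 of PBS nonstim or of Cisplatin nonstim. Apoe, the particle on which astrocytes export cholesterol, was at 0.17 ± 0.10 (edgeR adjusted p = 0.367).

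Within the first batch all 24 members were lower, with a median of -0.83, and within the second 19 of 24 with -0.17. Hmgcs1 was lower by 1.11 in the first and 0.71 in the second batch. With the ribosomal RNA-like share as a covariate 8 members fell, and 12 without the 4 second-batch PBS libraries. Leaving out 1 library gave 4 to 10, lowest (4) without replicate 1 of PBS nonstim or of Cisplatin nonstim. The second batch alone gave 3.

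RefSeq windows were found for 17 of the list's genes. The sterol regulatory element was searched as TCACNCCAC and the CCAAT box, the site of the factor NF-Y, as CCAAT, both on either strand. A CCAAT box was in 16 of the 17 (94.1%) against 41% of the 8062 tested genes with a window. The sterol regulatory element was in 1 of them, Hmgcs1 (TCACCCCAC), and in 1.23% of the tested genes. The windows of Hmgcs1 (chr13:119690101-119690350, plus strand), Idi1 (chr13:8885356-8885605, plus strand) and Cyp51 (chr5:4104698-4104947, minus strand) are shown as those of 3 called members, with the matches in capitals (ATTGG is CCAAT on the other strand).
Hmgcs1: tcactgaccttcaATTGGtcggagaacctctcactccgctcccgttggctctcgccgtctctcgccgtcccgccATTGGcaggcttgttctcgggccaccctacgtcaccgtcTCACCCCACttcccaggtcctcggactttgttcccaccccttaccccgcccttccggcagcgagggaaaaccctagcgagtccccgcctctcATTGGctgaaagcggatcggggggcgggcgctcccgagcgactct
Idi1: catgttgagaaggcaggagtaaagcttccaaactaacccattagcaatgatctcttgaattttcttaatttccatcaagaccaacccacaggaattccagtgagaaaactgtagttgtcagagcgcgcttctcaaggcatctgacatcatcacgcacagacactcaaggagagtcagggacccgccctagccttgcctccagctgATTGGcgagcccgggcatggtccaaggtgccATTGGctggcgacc
Cyp51: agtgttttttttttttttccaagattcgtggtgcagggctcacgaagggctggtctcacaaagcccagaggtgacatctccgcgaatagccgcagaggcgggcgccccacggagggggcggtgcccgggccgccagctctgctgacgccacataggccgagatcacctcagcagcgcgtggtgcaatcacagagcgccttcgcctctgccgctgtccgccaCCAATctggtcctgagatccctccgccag
Hmgcs1 had 3 CCAAT boxes beside the sterol element, Idi1 had 2 and Cyp51 had 1. No match of the sterol element in a window says only that these letters are not in it.

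**Figure D3:**
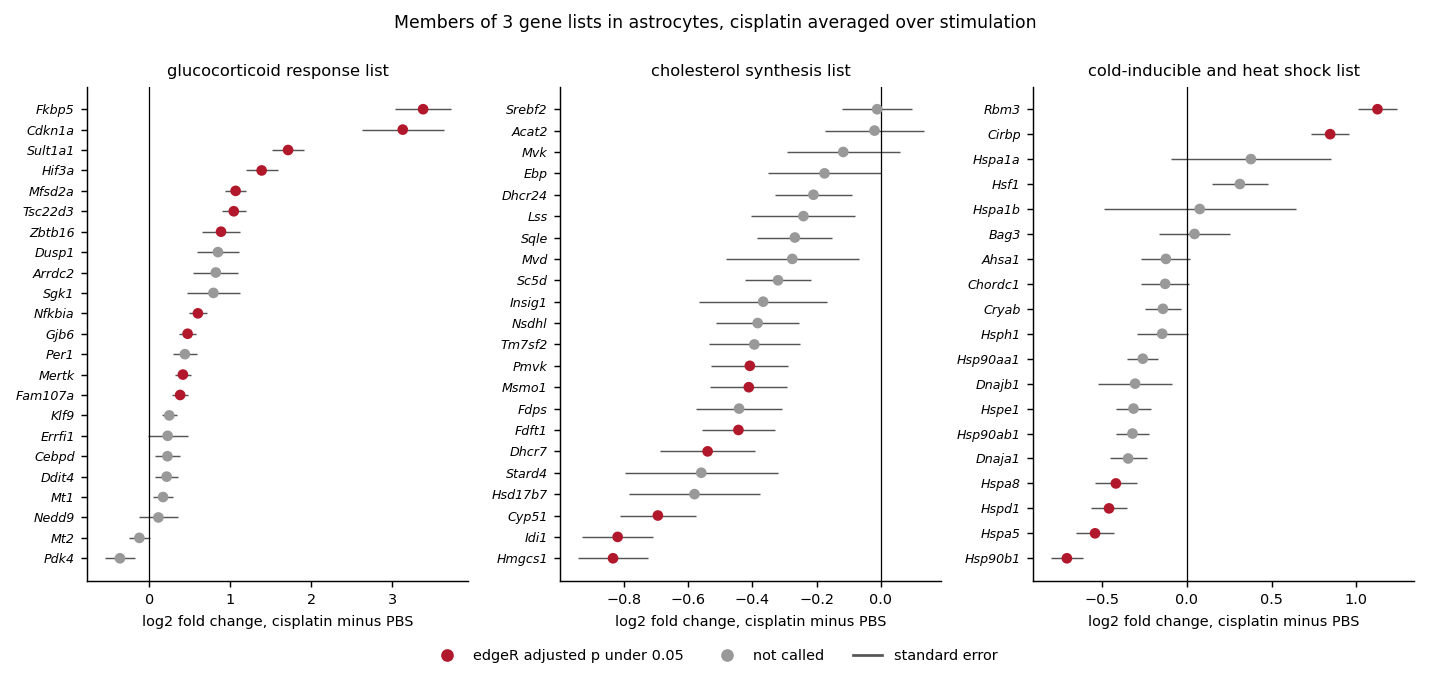
Points are the log2 fold changes (cisplatin minus PBS, averaged over stimulation) of tested members of 3 gene lists (22 of the 24 tested for cholesterol synthesis, all for the other lists), bars their standard errors, red points genes called by edgeR at an adjusted p under 0.05. Of the glucocorticoid response genes 11 of 23 rose, of the cholesterol synthesis genes plotted 7 fell, and of the cold-inducible and heat shock genes 2 rose (Rbm3, Cirbp) and 4 fell.

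Both cold-inducible RNA-binding proteins rose, and some chaperones fell. Of 19 tested members of the cold-inducible and heat shock list 2 rose and 4 fell (background 2.6% higher and 2.42% lower). Rbm3, which is induced by cooling and known for protecting synapses, had 68.1, 64.1 and 80.7 CPM in PBS nonstim, 64, 89.5 and 59.7 in PBS stim, 107, 173 and 140.3 in Cisplatin nonstim and 149, 198 and 168 in Cisplatin stim. Each cisplatin library exceeded each PBS library, and Rbm3 rose by 1.12 ± 0.12 (edgeR adjusted p = 2.9e-07; first batch 0.92, second 1.21). Cirbp, its relative, rose by 0.85 ± 0.11 (edgeR adjusted p = 1.95e-05; first batch 0.62, second 0.96). Rbm3 overlaps the antisense gene Rbm3os, and the level is uncertain unless the counting used strand.

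Hsp90b1, the Hsp90 of the endoplasmic reticulum, had 476, 454 and 417 CPM in PBS nonstim, 447, 407 and 446 in PBS stim, 264, 310.2 and 255 in Cisplatin nonstim and 237, 267 and 291 in Cisplatin stim. The arms did not overlap, and it fell by 0.71 ± 0.10 (edgeR adjusted p = 2.48e-05; 0.88 in the first and 0.62 in the second batch). Hspa5, the chaperone BiP, fell by 0.54 ± 0.11, and the disulfide isomerase Pdia6 by 0.65 ± 0.11 (edgeR adjusted p = 0.000242), each with all cisplatin below all PBS libraries. Pdia3 and calreticulin (Calr), which load class I molecules in the same compartment, fell by 0.43 ± 0.12 and 0.58 ± 0.17. Hspd1 of the mitochondrion and Hspa8 of the cytosol fell by 0.46 ± 0.11 and 0.42 ± 0.12. In the 12 fits without 1 library Pdia3 passed in 8, Calr in 4 and Hspa8 in 4, and Hspd1 in all but the one without Cisplatin nonstim replicate 3. Hspd1 and Hspa8 share 50.1% and 43.5% of their 31-base words with other genes, and their levels are uncertain.

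Fabp7, a brain fatty acid binding protein of astrocytes and their precursors, had 152, 358 and 391 CPM in PBS nonstim, 208, 399 and 362 in PBS stim, 110.2, 185 and 96.6 in Cisplatin nonstim and 45.6, 97 and 154 in Cisplatin stim. It was lower in the cisplatin libraries, with PBS nonstim replicate 1 inside their range. It fell by 1.42 ± 0.15 (edgeR adjusted p = 2.9e-07; first batch 1.31, second 1.55). Fabp7 is not particular to astrocytes, since oligodendrocyte precursors had a higher level (median 656 against 171 CPM). The thinned share of astrocytes with an Fabp7 UMI averaged 30.7% in PBS nonstim, 30.9% in PBS stim, 14.5% in Cisplatin nonstim and 11.8% in Cisplatin stim (unthinned 49.4, 51.6, 32.7 and 28.6%), and in oligodendrocytes at most 1.53% in any library. Of the 12 tested genes of the radial glia and stem-like list, Fabp7 fell and Prom1 and Vim rose (background 2.42% lower and 2.6% higher). The other 9, among them Hopx (-0.37 ± 0.12) and Nr2e1 (-0.36 ± 0.11), were not called.

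Them4, a mitochondrial acyl-CoA thioesterase, had 58.1, 103 and 118 CPM in PBS nonstim, 77.1, 126 and 86.7 in PBS stim, 38.9, 51 and 51.1 in Cisplatin nonstim and 20.4, 31.1 and 35.3 in Cisplatin stim. The arms did not overlap, and it fell by 1.35 ± 0.13 (edgeR adjusted p = 1.56e-07; first batch 1.22, second 1.36). Of 24 tested genes of fatty acid use and storage only Fabp7 and the elongase Elovl5 (-0.34 ± 0.10; called in 1 of 12 fits without 1 library) were called. Of 24 genes of glycolysis, lactate and glycogen, Slc2a1 and Aldoc rose and 0 fell, a share near the background of 5.02%. Aldoc rose by 0.52 ± 0.12 (edgeR adjusted p = 0.00875), by 0.05 within the first and 0.75 within the second batch, and was at -0.06 with the ribosomal RNA-like covariate.

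Some receptors fell. On the receptor list 4 of 20 tested genes fell, the surface receptors Grm3, S1pr1 and Grm5 and the intracellular Nr3c1 described above, and 1 rose (background 5.02%), with 0 and 0 called under the ribosomal RNA-like covariate and without the 4 second-batch PBS libraries. Leaving out PBS stim replicate 2 alone left 2 that fell. Grm3, the metabotropic glutamate receptor that astrocytes keep in the adult, had 163, 220.1 and 239 CPM in PBS nonstim, 211, 232 and 248 in PBS stim, 149, 142 and 111 in Cisplatin nonstim and 66.7, 97 and 114 in Cisplatin stim. Cisplatin libraries were all below PBS libraries, and it fell by 0.97 ± 0.11 (edgeR adjusted p = 3.42e-06; 0.89 in the first and 1.02 in the second batch). The sphingosine phosphate receptor S1pr1 fell by 0.64 ± 0.10 without overlap, the receptor Grm5 by 0.77 ± 0.21, and Fgfr3 rose by 0.33 ± 0.09; of the 12 fits without 1 library Grm5 passed in 8 and Fgfr3 in 5.

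The water channel Aqp4, which lines the end feet at vessels, had 719.7, 849 and 1069.9 CPM in PBS nonstim, 875, 972 and 811 in PBS stim, 675, 654 and 629.9 in Cisplatin nonstim and 434, 499 and 679.7 in Cisplatin stim. It was lower in all cisplatin libraries and fell by 0.57 ± 0.11 (edgeR adjusted p = 0.00144; first batch 0.55, second 0.59). Of 15 tested genes for gap junctions, potassium and water, Aqp4 and dystroglycan (Dag1, -0.32 ± 0.09), which anchors it, fell and Gjb6 rose. The background was 2.6% higher and 2.42% lower. Dag1 passed in 2 of 12 fits without 1 library. Gja1 was at -0.31 ± 0.10 (edgeR adjusted p = 0.0803) and the potassium channel Kcnj16 at -0.36 ± 0.15, neither called.

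For transmitter handling 1 call was made in each direction. Of 14 tested genes for glutamate, GABA and glycine handling, 1 rose and 1, the monoamine oxidase Maob, fell (-0.52 ± 0.12). The background was 2.6% higher and 2.42% lower. Maob was not called without Cisplatin nonstim replicate 2. Slc1a2 was at -0.15 ± 0.10 (edgeR adjusted p = 0.475), Slc1a3 at -0.08 ± 0.10 and Glul at 0.12 ± 0.10. None of these 3 was called, and Glul, which shares 19.7% of its 31-base words with other genes, is uncertain.

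Matrix and synapse-acting genes went both ways. Of 19 tested, Ncan (neurocan), Nrcam, Nlgn1 and Thbs4 fell and Sparc and Mertk rose (background 2.42% lower and 2.6% higher). Thbs4 was named after its value was seen. Without Cisplatin nonstim replicate 2 only 1 of the 4 that fell still did, and over the 12 fits without 1 library Nrcam passed in 8, Nlgn1 in 3 and Thbs4 in 5. Ncan had 307, 209 and 288 CPM in PBS nonstim, 371, 243 and 248 in PBS stim, 236, 164 and 150.5 in Cisplatin nonstim and 128, 124 and 181 in Cisplatin stim and fell by 0.76 ± 0.12 (edgeR adjusted p = 0.000212; first batch 0.95, second 0.67). PBS libraries were the higher, apart from Cisplatin nonstim replicate 1, which lay above PBS nonstim replicate 2. Hapln1, which links hyaluronan to such proteoglycans, fell by 0.75 ± 0.11 (edgeR adjusted p = 5.09e-05; first batch 0.80, second 0.72), with all cisplatin below all PBS libraries. Sparc rose by 0.73 ± 0.14, but its difference was 0.18 within the first and 1.02 within the second batch. The growth factor pleiotrophin (Ptn) fell by 0.62 ± 0.10 and is among 16 ligands of which it and Agt alone were called. With stimulation 5 of the 16 fell and 0 rose (background 1.22% lower), the factors Fgf1 (-0.67 ± 0.19), Wnt7a (-1.2 ± 0.29), Ptn (-0.70 ± 0.15), Angpt1 (-1.0 ± 0.26) and Il33 (-0.57 ± 0.16), all but Ptn named after their values were seen. Over the 12 fits without 1 library these passed in 4, 8, 10, 7 and 3, and under the covariate 0 of the 5 were called.

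Of the 6 tested genes of the pan-reactive astrocyte list 2 rose and 0 fell (background 2.6% higher). Gfap had 316, 374 and 620.1 CPM in PBS nonstim, 629, 375 and 498 in PBS stim, 284, 736 and 301 in Cisplatin nonstim and 428, 241 and 465 in Cisplatin stim, with all PBS values inside the cisplatin range, and was at -0.19 ± 0.19 (edgeR adjusted p = 0.641). Vim rose by 0.65 ± 0.15 (edgeR adjusted p = 0.00868), by 0.15 in the first and 0.83 in the second batch, and was not called without Cisplatin nonstim replicate 2. Serpina3n, a protease inhibitor, rose by 1.17 ± 0.30 (called in 6 of 12 fits without 1 library), and the other 3 tested genes of the pan-reactive list were not called. Serpina3n shares 21.6% of its 31-base words with other genes and is uncertain.

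Of the 6 tested genes of the A1 list, which names a state reported after inflammation, 3 rose and 0 fell (background 2.6% higher). They were Fkbp5, the fibulin Fbln5 (1.52 ± 0.34) and complement C4b (0.57 ± 0.16), Fkbp5 being on the glucocorticoid list too. Fbln5 was not called without Cisplatin nonstim replicate 2, and C4b, which is uncertain with 48.3% of its 31-base words shared, passed in 4 of 12 fits without 1 library. S100a10, the tested member of the A2 list and a partner of annexin A2, had 55.1, 92 and 103 CPM in PBS nonstim, 70.1, 135 and 77.4 in PBS stim, 22, 59.1 and 56.7 in Cisplatin nonstim and 15.7, 40.1 and 44.4 in Cisplatin stim. It fell by 1.22 ± 0.15 (edgeR adjusted p = 4.32e-06; first batch 1.69, second 1.00), with an overlap through PBS nonstim replicate 1 only.

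Among genes that answer DNA damage, 1 of 17 tested p53 targets was called, a share near the background of 5.02%. This was Cdkn1a, which rose. It had 3.82, 9.57 and 0.635 CPM in PBS nonstim, 0.877, 1.57 and 0.841 in PBS stim, 9.55, 4.7 and 31.6 in Cisplatin nonstim and 50.4, 11.6 and 39 in Cisplatin stim, so that Cisplatin nonstim replicates 1 and 2 lay within the PBS range. Other cell types held more of it. The thinned share of cells with a Cdkn1a UMI averaged 0.621, 0.368, 1.32 and 4.49% of astrocytes in the PBS groups (nonstim, stim) and the cisplatin groups (nonstim, stim), and 0.888, 0.493, 6.47 and 44.0% of oligodendrocytes (unthinned 1.36, 0.696, 3.57 and 13.4%, and 1.70, 1.24, 15.1 and 62.4%). Oligodendrocytes reached 919.6 and microglia 303 CPM under cisplatin. What free RNA from those cells adds to the low astrocyte level was not tested. The p53 target Mdm2, named afterwards, was at 0.25 ± 0.15, not called. Of 15 genes for platinum transport and crosslink repair and 8 metallothionein and zinc genes 0 were called (background 5.02%). Lists this short cannot tell 0 calls from that share. Mt1 was at 0.17 ± 0.12 and Mt2 at -0.12 ± 0.13. Over all genes the edgeR test counted 2049 at an unadjusted p under 0.05.

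Among transcription factors the inhibitors Id3, Id4 and Id2 rose by 0.64 ± 0.13, 0.33 ± 0.09 and 0.35 ± 0.10 and Rorb fell by 0.31 ± 0.09, of 21 identity factors tested. The background was 2.6% higher and 2.42% lower, here and for the Notch and clock lists. Id3 passed in all 12 fits that left out 1 library, Id4 and Rorb in 4 and Id2 in 5. In the Notch list Lfng, which modifies Notch receptors, had 159, 122 and 130.2 CPM in PBS nonstim, 146, 129.5 and 129.6 in PBS stim, 183, 224 and 226 in Cisplatin nonstim and 206, 283 and 214 in Cisplatin stim. All cisplatin libraries were above all PBS libraries, and it rose by 0.70 ± 0.11 (edgeR adjusted p = 0.000107; first batch 0.35, second 0.87); Notch2 rose by 0.39 ± 0.11 and passed in 4 of 12 such fits. Of 18 clock genes Ciart and Cry1 rose by 1.25 ± 0.32 and 0.59 ± 0.17, and Arntl and Rorb fell, Arntl by 0.67 ± 0.18. Over those fits Ciart passed in 8, Arntl in 7 and Cry1 in 3. Ciart shares 20.8% of its words with other genes and is uncertain. The labels do not give the time of day of tissue collection.

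The ribosomal RNA-like transcripts and some mitochondrially encoded ones differed mainly within the second batch. Gm42418 had 7849, 31145 and 50008 CPM in PBS nonstim, 6114, 49254 and 23913 in PBS stim, 5062, 7062 and 6340.4 in Cisplatin nonstim and 5126, 8197 and 11849 in Cisplatin stim. Its levels were high in the 4 second-batch PBS libraries, and it was at -0.44 within the first and -2.18 within the second batch. The histone Hist1h1e, whose level is uncertain since it shares 34.7% of its 31-base words, had 16.1, 49.9 and 49.6 CPM in PBS nonstim, 6.14, 63.6 and 63.9 in PBS stim, 8.08, 15.4 and 14.9 in Cisplatin nonstim and 10.2, 28.5 and 22.7 in Cisplatin stim and stood at -0.13 and -1.47. Of 13 replication-dependent histones 6 fell and 0 rose (background 2.42% lower). Their median was -0.59 within the first batch, with 11 of 13 lower, and -0.42 within the second, with 9 lower, so that Hist1h1e does not stand for its list. Of 13 mitochondrially encoded genes 4 fell and 0 rose, with a median of 0.305 and 2 lower in the first batch and of -0.079 and 10 lower in the second. In both lists 0 were called under the covariate or without those 4 libraries. mt-Atp8 stood at -0.13 and -2.16 and mt-Nd6 at -0.08 and -1.45 in the first and second batch. The gene mt-Atp8 overlaps mt-Atp6, and mt-Nd6 lies opposite mt-Nd5, so their reads may be split or mixed.

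The batches were compared for the calls that the second batch makes alone. Of 470 genes called higher there 69.6% were also higher in the first batch, and 34.7% had both its cisplatin libraries above both its PBS libraries. Over all 9941 genes tested in both these shares were 50% and 19.2%. Of 374 genes called lower in the second batch 72.2% were lower in the first, and 40.9% without overlap, against 49.9% and 20% of all genes. These 2 sets were chosen in libraries that do not enter the first batch values.

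The immediate early and dissociation list, which includes Fos and Junb, differed in direction between the batches. Of its 19 tested genes 16 were lower under cisplatin in the first batch (median -0.46) and 18 higher in the second (median 0.698). Fos was at -0.78 and 1.18. None of the 19 was called in the fit over both batches (edgeR; over all genes 510 calls).

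**Figure D4:**
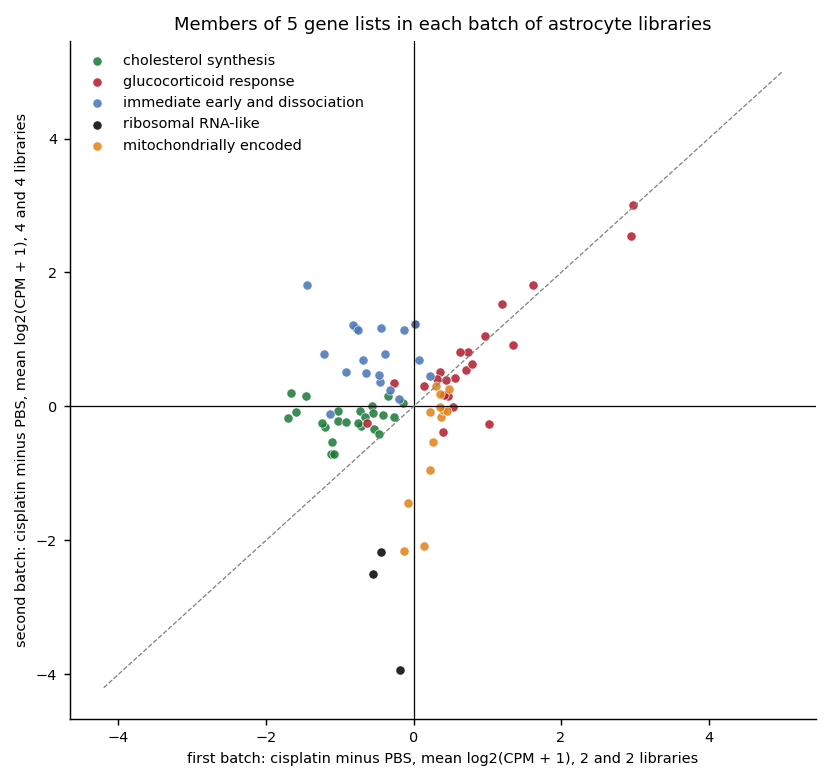
Each point is a gene of 1 of 5 lists, placed by its cisplatin minus PBS difference in mean log2(CPM + 1) within the first batch (horizontal axis, 2 against 2 libraries) and within the second (vertical axis, 4 against 4), with the dashed line at equality. Glucocorticoid response genes are high in both batches (medians 0.557 and 0.52) and cholesterol synthesis genes low (-0.83 and -0.17), while the immediate early genes lie at -0.46 and 0.698 and the ribosomal RNA-like transcripts at -0.44 and -2.5.

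Without stimulation the drug comparison (Cisplatin nonstim minus PBS nonstim) called 37 genes, 22 higher and 15 lower, 0.364% of those tested. Etnppl (1.38 ± 0.19), Agt (0.94 ± 0.13), Rbm3 (0.99 ± 0.16), Idh2 (0.69 ± 0.14), Usp2 (0.77 ± 0.15) and Itih3 (0.73 ± 0.16) rose. Them4 (-0.96 ± 0.17), Fabp7 (-1.1 ± 0.20), Hmgcs1 (-0.78 ± 0.15), Idi1 (-0.76 ± 0.16), Hsp90b1 (-0.70 ± 0.13) and Hapln1 (-0.72 ± 0.15) fell. Apoc1, an apolipoprotein, rose by 1.35 ± 0.28 (edgeR adjusted p = 0.0203). The called set holds the choroid plexus marker Ttr and the oligodendrocyte marker Mobp as well. Markers of other cell types were higher in this comparison, 8 of 9 for oligodendrocytes (median log2 fold change 0.69) and 5 of 5 tested for microglia (0.47), and lower in Cisplatin stim minus Cisplatin nonstim, 9 of 9 (-0.75) and 5 of 5 (-1.09), with Mobp the 1 call among them. Their part in either result was not tested.

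The 37 calls were 7 without Cisplatin nonstim replicate 3, 11 without Cisplatin nonstim replicate 2, 12 without PBS nonstim replicate 3 and 21 without PBS nonstim replicate 2. They were 72 without Cisplatin nonstim replicate 1 and 83 without Cisplatin stim replicate 1. With the ribosomal RNA-like covariate 1 gene was called and without a batch term 0, none of them a gene named here. The fit without the 4 second-batch PBS libraries leaves 1 PBS nonstim library, of the first batch, and its calls are not listed here. Of the genes named here, Etnppl and Agt passed with any 1 library left out, Rbm3 in all but that without Cisplatin nonstim replicate 2, and Fabp7 in all but those without replicate 3 of PBS nonstim or Cisplatin nonstim. Them4, Hsp90b1 and Idi1 passed in 9 of 12 such fits, Hmgcs1, Usp2, Idh2, Itih3, Hapln1, Apoc1 and Phyhd1 in 8 and Mobp in 7.

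With stimulation (Cisplatin stim minus PBS stim) 140 genes rose and 124 fell, 2.6% of those tested. Fkbp5 rose by 4.57 ± 0.46, Etnppl by 2.24 ± 0.20, Kcnt1 by 2.29 ± 0.25, Sult1a1 by 2.27 ± 0.28 and Rhou, a small GTPase of the cytoskeleton, by 1.37 ± 0.17. The largest of the falls named here was Gem, a GTPase that blocks calcium channels, at -2.9 ± 0.46 (edgeR adjusted p = 0.000393), from 29.8, 12.6 and 19.4 CPM in PBS stim to 0.681, 3.88 and 4.53 in Cisplatin stim. Them4 fell by 1.75 ± 0.19, Grm3 by 1.33 ± 0.17, S100a10 by 1.55 ± 0.22 and Emp2, a tetraspan membrane protein, by 0.97 ± 0.17. Of the glucocorticoid list 10 of 23 rose here and 1 of 23 without stimulation. The 264 calls were 142 without PBS stim replicate 2 or 3 and 164 without PBS stim replicate 1, and at most 309 with any 1 library left out. They were 64 with the covariate, and the 10 genes named here passed there. The fit without the 4 second-batch PBS libraries leaves 1 PBS stim library, of the first batch, and its calls are not listed here.

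A larger number of calls with stimulation than without is no test of a difference. The interaction tested it for each gene and called 1, Ttr (0.00984% of genes; 515 at an unadjusted p under 0.05), and DESeq2 and limma-voom called 0. The median interaction of the glucocorticoid list was 0.51 with 0 of 23 called. Fkbp5 had an interaction of 2.37 ± 0.82 (edgeR adjusted p = 0.801).

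For stimulation in mice given cisplatin (Cisplatin stim minus Cisplatin nonstim) edgeR called 3 genes, all higher, 0.0295% of those tested, with 659 at an unadjusted p under 0.05. With 3 libraries per group, a gene that was not called is not shown to be unchanged. Rhou had 44.1, 77.9 and 78 CPM in Cisplatin nonstim and 131, 160.4 and 126 in Cisplatin stim. The groups did not overlap, and Rhou rose by 1.1 ± 0.16 (edgeR adjusted p = 0.00254). Fkbp5 had 5.14, 14.8 and 12.1 and 39.5, 45.3 and 37.2 CPM, again without overlap, and rose by 1.95 ± 0.32 (edgeR adjusted p = 0.00744). Far1, which makes the fatty alcohols of plasmalogen lipids, had 47.8, 50.4 and 35.3 and 225, 69.9 and 70.7 CPM, highest in Cisplatin stim replicate 1, and rose by 1.38 ± 0.25 (edgeR adjusted p = 0.0217). It overlaps the antisense gene Far1os, so its level carries the same doubt as that of Rbm3.

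These calls were few and moved with single libraries. Rhou was not called without Cisplatin nonstim replicate 1, and Fkbp5 and Far1 not without that library, Cisplatin nonstim replicate 3 or Cisplatin stim replicate 1. There were 0 without Cisplatin nonstim replicate 1, 1 without Cisplatin nonstim replicate 3, 5 without PBS stim replicate 1 or Cisplatin nonstim replicate 2, 7 without Cisplatin stim replicate 2 and 12 without Cisplatin stim replicate 1. Without a batch term there were 0, and with the replicate number as a block Far1 was not called (edgeR adjusted p = 0.0687). No gene was called lower. Etnppl was at 0.65 ± 0.18, Hmgcs1 at 0.02 ± 0.16, Fabp7 at -0.51 ± 0.22 and Aqp4 at -0.29 ± 0.16 for stimulation in cisplatin mice, none called. Agt, which was higher under cisplatin, was at -0.37 ± 0.13, toward PBS and not called (edgeR adjusted p = 0.537). The comparison shares its Cisplatin nonstim libraries with the one of the drug without stimulation.

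In mice given PBS, stimulation (PBS stim minus PBS nonstim) called 0 genes by edgeR, DESeq2 and limma-voom, with 251 at an unadjusted p under 0.05 by edgeR. Leaving out PBS stim replicate 1 gave 1. Etnppl was at -0.21 ± 0.20, Fabp7 at 0.15 ± 0.19 and Rhou at 0.33 ± 0.18.

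Ttr, transthyretin, is a choroid plexus product and not an astrocyte gene. It had 12.2, 104 and 118 CPM in PBS nonstim, 8.77, 137 and 990.3 in PBS stim, 456, 1546 and 910.4 in Cisplatin nonstim and 112, 397 and 305 in Cisplatin stim in astrocytes, and its interaction was -4.01 ± 0.70 (edgeR adjusted p = 0.0378), called in 4 of the 12 fits that left out 1 library. Choroid plexus cells made up 2.29, 4.83 and 9.94% of the cells of the PBS nonstim libraries, 2.95, 16.1 and 24.1% of PBS stim, 10.8, 38 and 11.4% of Cisplatin nonstim and 7.96, 29.7 and 19.2% of Cisplatin stim. The thinned share of cells with a Ttr UMI averaged 13.3, 26.5, 61.5 and 39.8% of astrocytes, 12.7, 23.6, 58.2 and 39.0% of oligodendrocytes and 15.4, 26.6, 56.2 and 41.1% of microglia in these groups, and is read as background. The summed choroid plexus markers ranged from 25.9 to 1159 CPM in PBS and from 133 to 1618 in cisplatin astrocytes.

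Oligodendrocyte markers summed to 504 to 1391 CPM in PBS and 497 to 1713 in cisplatin astrocytes, microglia markers to 73.8 to 133 and 61.0 to 155, and neuron markers to 114 to 355 and 102 to 468. Endothelial markers summed to 7.68 to 18.7 and 12.3 to 113. Every marker on these lists was detected in at least 1 library. Of the 4 immune, 4 fibroblast and 4 neuroblast and progenitor markers, 1 each was at 0 in all libraries. Leaving out the 18 cells rich in such markers gave 515 calls for cisplatin averaged over stimulation, and Ttr was then not called in the interaction.

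The drug effect in astrocytes was set against that in oligodendrocytes and microglia, by a test of the difference over libraries. It differed from that in oligodendrocytes for 429 of 11434 genes (3.75%; 218 higher in astrocytes, 1.91%, and 211 lower, 1.85%) and from that in microglia for 232 of 11774 (1.97%; 110 higher in astrocytes, 0.934%, and 122 lower, 1.04%). The first count was 284 without Cisplatin nonstim replicate 2 and the second 150 without Cisplatin stim replicate 2. The genes named in this comparison were chosen with earlier results known.

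Against oligodendrocytes, Itih3 showed opposite directions, at 0.73 in astrocytes and -1.41 in oligodendrocytes (difference 2.15 ± 0.14; edgeR adjusted p = 3.83e-21). Tsc22d3 rose in astrocytes and was at 0.05 in oligodendrocytes (difference 0.97 ± 0.12; edgeR adjusted p = 2.09e-08). Far1 was at 0.99 and -0.46 (difference 1.42 ± 0.17). For other glucocorticoid-induced genes the log2 fold change was lower in astrocytes, for Sult1a1 by -3.01 ± 0.46, for Hif3a by -2.96 ± 0.39 and for Mfsd2a by -1.26 ± 0.21. The oligodendrocyte folds of Sult1a1 and Hif3a start near 0, at a median of 0.52 and 0.59 CPM in PBS libraries against 14.3 and 16.1 in cisplatin libraries. Astrocytes went from 19.9 to 58.1 CPM and from 18.1 to 43.7, more in CPM. Itih5, a gene chosen after its values were seen, was at 0.15 in astrocytes and 3.34 in oligodendrocytes. Grm3 fell more in astrocytes (-0.55 ± 0.12), and Them4, at -0.20 and not called in oligodendrocytes, differed by -1.13 ± 0.18. Fkbp5 (0.67 ± 0.38, edgeR adjusted p = 0.423), Hmgcs1 (-0.24 ± 0.13, edgeR adjusted p = 0.403) and Cdkn1a (-1.97 ± 0.77, edgeR adjusted p = 0.162) were not called as different.

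Against microglia, S100a10 fell in astrocytes and rose in microglia (-1.22 and 1.34; difference -2.44 ± 0.21, edgeR adjusted p = 1.36e-27). Apoe rose in microglia (1.22) and was at 0.17 in astrocytes (difference -1.03 ± 0.13; edgeR adjusted p = 1.04e-12). Fkbp5 and Tsc22d3 rose in both, with larger log2 fold changes in astrocytes (differences of 2.32 ± 0.34 and 0.64 ± 0.12). The astrocyte fold of Fkbp5 starts near 0, at a median of 2.05 CPM in PBS against 26.2 in cisplatin libraries. Microglia went from 79.7 to 177 CPM, more in CPM. Phyhd1 rose in astrocytes and fell in microglia (-0.25, difference 1.99 ± 0.15). Cdkn1a was not called in microglia (-0.12, difference 3.37 ± 0.32). Its astrocyte fold also starts near 0, at a median of 1.2 CPM in PBS and 22.1 in cisplatin libraries. Hsp90b1 fell in both and more in astrocytes (-0.38 ± 0.12). Hmgcs1, Idi1 and Them4 fell in astrocytes and were not called in microglia, at -0.13, 0.26 and -0.01, with differences of -0.63 ± 0.16, -1.02 ± 0.28 and -1.33 ± 0.27.

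**Figure D5:**
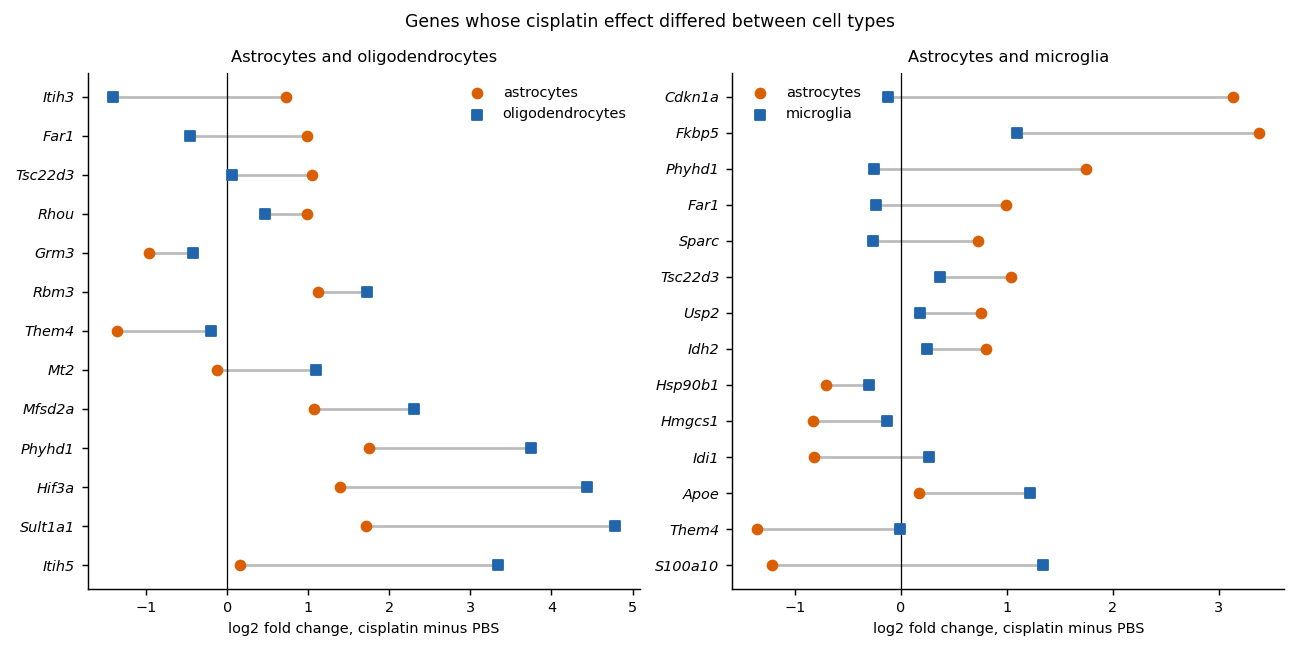
Log2 fold changes for cisplatin minus PBS, averaged over stimulation, in astrocytes (circles) and in oligodendrocytes (left, squares) or microglia (right, squares), for 13 genes (left) and 14 genes (right) whose difference between the types was called by edgeR; a line joins the values of a gene. Itih3 lies at 0.73 in astrocytes and -1.41 in oligodendrocytes, S100a10 at -1.22 in astrocytes and 1.34 in microglia.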

How the data were processed

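Hippocampal cells of 12 libraries were sequenced from 10x 3' libraries. The deposited matrix holds raw UMI counts for 32285 genes in 19834 cells, and the submitters' processing notes name Cell Ranger 5.0.0, the mm10 build and Scanpy. Cell types, clusters, library names and doublet scores were taken from the authors' deposited metadata, and no cell was removed as a doublet here (highest score in astrocytes 0.0945); the deposited mean score per gene was not used. Per library, 775134 to 2462137 astrocyte UMIs were summed over cells, since cells are not replicates, and the sums limit low genes most.

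The sums were tested with edgeR 4.0.16 (R 4.3.3; quasi-likelihood, TMM, filterByExpr, group plus batch, Benjamini-Hochberg adjustment over all 10163 genes, threshold 0.05). DESeq2 1.42.0 and limma 3.58.1 (voom) were alternatives, with others on normalisation, filters, batch, cells and libraries. On simulated data the fit recovered 186 of 200 changed genes among 10097, with 9 unchanged genes called (median absolute log2 change 0.98). The cell type difference recovered 73 of 200 among 11351, with 4 unchanged genes called. The simulation held no batch effect and no ribosomal RNA-like shift, gave all genes the same spread and changed only genes with higher counts. It cannot tell how reliable the calls are that move with batch or covariate, or those of low genes. Standard errors are the fold change over the root of F. Within-batch differences use log2(CPM + 1). Gene positions are from GENCODE M21 (GRCm38). Sampling intervals and shares cover counting error only, and replicates are pools of 1 or 2 animals.

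The members and gene lists were chosen with earlier results of these data known. Named genes are all called genes where a comparison made at most 40 calls, otherwise the 12 with the smallest adjusted p per direction, up to 6 members per list, and a fixed set; genes named after their values were seen are marked, and a few members of the lists are counted but not reported by name here. Deviations of PBS nonstim replicates 1, 2 and 3 had correlations of 0.484, 0.291 and 0.142 with those of PBS stim. With Cisplatin stim they had 0.298, 0.175 and 0.115, and with Cisplatin nonstim 0.367, 0.216 and 0.0225. The cisplatin groups had 0.358, 0.129 and 0.0716 with each other. The first value of each is shared with the batch. Within the second batch the correlation lay between -0.0585 and 0.053 for every pair of groups. These values therefore do not show a pairing by replicate number.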

Additional observations from a re-analysis of the deposited data

Results flagged for a closer look

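The effect of cisplatin differed with stimulation by a test of the difference itself for Ttr, at -4.01 on the log2 scale, the choroid plexus transcript described above.

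It differed between astrocytes and oligodendrocytes for 429 genes. Larger or opposite effects in astrocytes were tested for Itih3 (2.15), Far1 (1.42), Tsc22d3 (0.97) and Rhou (0.51). The difference of astrocytes minus oligodendrocytes was negative for Itih5 (-3.17), Sult1a1 (-3.01), Hif3a (-2.96), Phyhd1 (-2.02), Mfsd2a (-1.26), the metallothionein Mt2 (-1.26), Them4 (-1.13), Rbm3 (-0.58) and Grm3 (-0.55).

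It differed between astrocytes and microglia for 232 genes. The difference of astrocytes minus microglia was positive for Cdkn1a (3.37), Fkbp5 (2.32), Phyhd1 (1.99), Far1 (1.14), Sparc (1.02), Tsc22d3 (0.64), Usp2 (0.61) and Idh2 (0.60). For Cdkn1a and Fkbp5 the astrocyte fold starts near 0, as given above. The difference was negative for S100a10 (-2.44), Them4 (-1.33), Apoe (-1.03), Idi1 (-1.02), Hmgcs1 (-0.63) and Hsp90b1 (-0.38).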

How the results depend on the processing

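The calls rest on few libraries and on the batch term. Fits without the 4 second-batch PBS libraries keep 1 PBS library per stimulation state, both of the first batch. Fewer calls there can reflect fewer libraries. A fit with the covariate cannot separate the ribosomal RNA-like share from the drug, as given above. For cisplatin averaged over stimulation the 510 calls became 96 without a batch term, 849 in the second batch alone, 32 with the ribosomal RNA-like share as a covariate and 85 without the 4 second-batch PBS libraries (chosen after seeing the data); leaving out 1 library gave 305 to 673. Cisplatin nonstim minus PBS nonstim (37) became 114 without a filter, 0 without a batch term, 61 in cells with at most 10% mitochondrial UMIs, 190 in the second batch alone, 1 with the covariate, 15 without the 4 libraries, and 7 to 83 without 1 library. Cisplatin stim minus PBS stim (264) became 414 without a filter, 37 without a batch term, 64 with the covariate, 66 without the 4 libraries, and 142 to 309 without 1. Cisplatin stim minus Cisplatin nonstim (3) became 57, 0, 5, 16 in the second batch alone and 7 without the 4 libraries, and 0 to 12 without 1. PBS stim minus PBS nonstim (0) became 6 without a filter and 1 in the second batch alone, and 0 to 1 without 1 library. The interaction (1) became 0 by DESeq2, limma-voom, without a batch term and without cells rich in other markers, 25 without a filter, 3 in low-mitochondrial cells, 8 in the second batch and 2 without the 4 libraries, and 0 to 5 without 1. Astrocytes over 10% mitochondrial UMIs were 73.8 to 92.3% in first-batch and 16.4 to 35.7% in second-batch libraries. The setting with at most 10% therefore holds mostly second-batch cells. The causes of these changes in count were not tested.

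With the replicate block in place of the batch term the counts were 478, 34, 239, 2, 0 and, for the interaction, 0. It ended the Ttr call, that of Far1 (stimulation in cisplatin mice), those of Calr, Cry1, Hspa8, Msmo1, Notch2 and Thbs4 (averaged) and those of Fgf1 and Il33 (with stimulation), and moved no other count by over 1.5 times. Of 6 libraries per drug arm 4 (PBS) and 3 (cisplatin) correlated best with their own number. Of 111 called values of named genes, limma-voom kept 105, DESeq2 90 of the 102 it gave, the block 101, the second batch 91, no batch term 41, the covariate 28 and the fit without the 4 libraries 49. The differences from oligodendrocytes numbered 284 to 470 and from microglia 150 to 238 with 1 library left out.

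Log2 share differences changed sign for PBS stim minus PBS nonstim (0.055 without a batch term, 0.084 without choroid plexus cells, 0.0035 in low-mitochondrial cells), Cisplatin stim minus PBS stim (-0.13 in low-mitochondrial cells) and the averaged comparison (0.058 without choroid plexus cells). Without 1 library the 6 shares ranged from -0.59 to -0.097, 0.19 to 0.60, -0.30 to 0.14, -0.092 to 0.35, 0.19 to 0.68 (interaction) and -0.25 to 0.024 (averaged), in the order of Cisplatin nonstim minus PBS nonstim, Cisplatin stim minus Cisplatin nonstim, PBS stim minus PBS nonstim and Cisplatin stim minus PBS stim before these last 2. Under the covariate Aldoc (-0.056), Glul (-0.032), Gm42418 (0.081), Mt2 (0.40), Sparc (-0.034) and mt-Nd6 (0.045) changed sign, Glul (-0.035) and Mt2 (0.43) without the 4 libraries, Mt1 (-0.0095) in the second batch. Stimulation in cisplatin mice changed sign for Hmgcs1 in low-mitochondrial cells (-0.031), the second batch (-0.032), by the earlier label (-0.039), and without 1 library (-0.13 to 0.18).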
